A study of Mus musculus with 8 samples.

Results

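Cyp17a1, 4 flavin-containing monooxygenase genes (Fmo1, Fmo2, Fmo4 and Fmo5) and 3 sulfotransferase genes (Sult2a1, Sult2a3 and Sult2a6) are described here in injured mouse livers. They are 8 of the 22504 genes in the table of expression values, and they were chosen by their measured FPKM values, since several of them showed some of the largest falls from 8 weeks of chronic injury to the later groups. All 8 were among the 10244 genes that passed the floor on low values, which asks for 4 or more samples with an FPKM of 1 or more. Because the fall chose them, their differences from chronic injury for 8 weeks are given below as a description, with no test.

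The samples came from Fah−/− mice on a 129S4 background. These animals lack fumarylacetoacetate hydrolase, the last enzyme of tyrosine breakdown, and toxic intermediates build up in their hepatocytes unless the drug NTBC blocks an earlier step. All groups carried this deletion, and the standard NTBC dose in drinking water was 7.5 mg/L. In moderate chronic liver injury (MCLI) the animals received 2.5% NTBC, and for severe acute liver injury (SALI) they were taken off NTBC. Chronic injury lasted 8 weeks in the group called MCLI8 here (3 samples, 1a, 2a and 3a) and 12 weeks in MCLI12 (2 samples, 2e and 3e). MCLI8/SALI4 (3 samples, C096, C097 and C098) was put through severe injury for 4 weeks after the first 8 weeks. By their labels the MCLI12 samples are tumor and all others liver, so in MCLI12 a longer time and a tumor cannot be told apart. No group without injury, and no age or sex, is given by the labels. The study asked how the severity of injury relates to senescence and cancer of hepatocytes, and none of its groups was designed around these 8 genes.

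CYP17A1 is a microsomal cytochrome P450 that adds a hydroxyl group to carbon 17 of pregnenolone and progesterone and then cuts the side chain, which gives the androgen precursor dehydroepiandrosterone. It is best known from the adrenal gland and gonads, and rodent liver also makes it. Flavin-containing monooxygenases use NADPH and a bound flavin to put oxygen on nitrogen or sulfur atoms of drugs and dietary amines, and FMO5 instead inserts oxygen beside ketones. The cytosolic SULT2A enzymes transfer sulfate from the donor PAPS to hydroxysteroids and bile acids, which makes these more soluble. In mouse liver several genes of these families, among them Sult2a and Fmo genes, are known to differ between females and males.

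The Sult2a genes are shown first because they are near copies of each other, which bears on every Sult2a value below. On GRCm38.p6 the 8 Sult2a genes lie within 869.1 kb of chromosome 7, Fmo1, Fmo2 and Fmo4 lie on chromosome 1, Fmo5 is on chromosome 3 and Cyp17a1 on chromosome 19. The coding sequences of Sult2a1, Sult2a3 and Sult2a6 are each 858 bases long. Sult2a1 and Sult2a3 are identical at 93.7% of these bases, Sult2a1 and Sult2a6 at 89.7%, and Sult2a1 and the related Sult2a2 at 97.95% of the 585 bases that could be aligned. The first 120 coding bases of the 3 genes, from GENCODE M21 transcripts, are printed here with every base unlike Sult2a1 in capitals, 5 in Sult2a3 and 20 in Sult2a6.
Sult2a1: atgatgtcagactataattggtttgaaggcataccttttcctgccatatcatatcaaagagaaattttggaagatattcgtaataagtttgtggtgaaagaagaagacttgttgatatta
Sult2a3: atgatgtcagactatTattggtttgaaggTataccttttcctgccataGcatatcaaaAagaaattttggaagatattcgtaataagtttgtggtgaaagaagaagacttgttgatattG
Sult2a6: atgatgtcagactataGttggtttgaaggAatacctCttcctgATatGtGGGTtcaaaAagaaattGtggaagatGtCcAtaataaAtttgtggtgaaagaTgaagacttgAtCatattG
A read from a stretch without capitals could also come from Sult2a1. Of all 50-base windows in the annotated transcripts of a gene, 33.2% occurred in another gene for Sult2a1 (29.5% in Sult2a2), 8.36% for Sult2a3, 6.63% for Sult2a6, 7.02% for Fmo1 and 0.434% for Fmo5, and none for Cyp17a1, Fmo2 and Fmo4. How reads matching several genes were shared out is not given in the sources used here, so the Sult2a1 level is uncertain as a level of that gene alone. The Fmo genes are far less alike, with 59.0% to 63.0% identical coding bases between pairs of the 4 genes.

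Promoter sequences from RefSeq (GRCm38.p6) were matched for 5 of the 8 genes. Those of Sult2a3 and Sult2a6 are shown because both genes were far lower in both later groups, and they were identical at 81.4% of 279 aligned bases. The 120 bases before each start site are on the minus strand at chr7:14123049-14123168 for Sult2a3 and chr7:14254871-14254990 for Sult2a6. Capitals mark the letters GTTAAT, part of the site of the liver factor HNF1, and in Sult2a6 also a TATA box. The Sult2a3 window held a further GTTAAT match before the stretch shown.
Sult2a3: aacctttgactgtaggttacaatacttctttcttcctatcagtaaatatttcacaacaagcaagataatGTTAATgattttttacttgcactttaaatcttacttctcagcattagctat
Sult2a6: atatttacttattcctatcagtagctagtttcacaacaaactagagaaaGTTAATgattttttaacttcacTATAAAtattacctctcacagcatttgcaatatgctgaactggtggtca
Both strands of the 300-base promoter windows, from 250 bases before to 50 after the start site, were searched for 5 motifs. GTTAAT occurred in 7.10% of the 32851 promoters in the table. The TATA box, searched as the letters TATAAA, occurred in 13.6% of them. Neither Sult2a promoter window held the nuclear receptor motif AGGTCA (16.3% of promoters), its longer form CAAGGTCA (1.56%) or the STAT motif TTCNNNGAA (8.30%), of which the longer form contains the shorter. Among the other promoters matched, AGGTCA occurred for Fmo2 and Fmo4, the STAT motif for Fmo2 and TATAAA for Fmo5. These are matches of letters only, and no binding was measured.

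Expression is given as FPKM, fragments scaled by the length of the gene and by the mapped fragments of the sample, as deposited by the authors. FPKM is per length, and values of different genes are set side by side below as listed. Shared windows and an unknown quantifier limit such rankings. Summed over all genes, a sample had an FPKM of 324735 to 399342, and the number of reads behind a value is unknown. Fold values below are ratios of group means of FPKM, and differences are on the scale of log2(FPKM + 1), which understates changes of low genes, with the standard error (SE) of a limma fit to all 8 samples. Samples of MCLI8 and MCLI12 carry codes of one series and those of MCLI8/SALI4 codes of another, so this series and MCLI8/SALI4 cannot be told apart. Alb, the albumin gene, was listed at 0 in the MCLI8 and MCLI12 samples (5 in all) although hepatocytes make much albumin, so a listed 0 may be a failed estimate. None of the 8 genes was listed at 0 in any sample.

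Cyp17a1 was high after 8 weeks of chronic injury and lower in both later groups. Its FPKM was 123, 88.4 and 55.8 in the MCLI8 samples, 0.726, 0.946 and 0.304 in MCLI8/SALI4, with 13.5 and 2.59 in MCLI12. The 3 groups did not overlap, and MCLI8/SALI4 was lowest in every sample. The mean was 89.2 ± 33.9 (SD, n = 3) in MCLI8, against 0.659 ± 0.326 (SD, n = 3) in MCLI8/SALI4, a ratio of 135, and 8.05 ± 7.72 (SD, n = 2) in MCLI12, a ratio of 11.1. The difference on the log2(FPKM + 1) scale was -5.71 (SE 0.48) for MCLI8/SALI4 against MCLI8 and -3.57 (SE 0.54) for MCLI12 against MCLI8. Spread within groups was also wide, with a ratio of 2.21 between the highest and lowest MCLI8 sample and of 5.21 between the MCLI12 samples. Of 6 genes that mark the adrenal cortex, 3 were low, with Cyp11b1 at 0.0531 or less, Cyp11b2 at 0.203 or less and Nr5a1 at 0.0204 or less in every sample. Mc2r was listed at 0 in all 8, from which no level is read. The other 2 were present in every sample, Akr1b7 between 3.06 and 78.1 FPKM and Cyp21a1 between 1.15 and 16.3. Cyp21a1 was called higher than in MCLI8 in both later groups (2.24 and 1.31; limma, adjusted p = 0.00093 and 0.0346), where Cyp17a1 was lower, and Akr1b7 was not called in either.

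Sult2a1, a hydroxysteroid and bile acid sulfotransferase, had the highest mean FPKM of the 8 genes in MCLI8. Its FPKM was 679, 605 and 631 in MCLI8, 109, 116 and 115 in MCLI8/SALI4, with 29.1 and 10.97 in MCLI12. The groups stood in 3 separate steps, with MCLI12 lowest. The mean was 638 ± 37.3 (SD, n = 3) in MCLI8, 5.62 times that of MCLI8/SALI4 (114 ± 3.71, n = 3) and 31.9 times that of MCLI12 (20.0 ± 12.8, n = 2). The MCLI8/SALI4 samples agreed closely, within a ratio of 1.06, while the MCLI12 samples differed by a ratio of 2.65.

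Sult2a3, of the same cluster on chromosome 7, had the same order of groups at a lower level. Its FPKM was 46.9, 53.9 and 71.4 in MCLI8, 11.3, 6.93 and 10.8 in MCLI8/SALI4, with 0.983 and 0.894 in MCLI12. Again no sample of a group reached into the next, and both MCLI12 samples were under 1. The MCLI8 mean of 57.4 ± 12.6 (SD, n = 3) was 5.94 times the MCLI8/SALI4 mean and 61.1 times the MCLI12 mean, the highest of the 8 ratios to MCLI12.

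Sult2a6 was also lower in both later groups, but MCLI8/SALI4 and MCLI12 were not separated. Its FPKM was 64.6, 59.0 and 70.1 in MCLI8, 5.999, 4.99 and 5.77 in MCLI8/SALI4, with 7.20 and 1.58 in MCLI12. The MCLI12 samples lay on either side of all 3 MCLI8/SALI4 samples. The MCLI8 mean was 11.6 times that of MCLI8/SALI4 and 14.7 times that of MCLI12.

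The 4 Fmo genes moved less than Cyp17a1 and the Sult2a genes. Fmo1, which oxidises tertiary amines and sulfides, had an FPKM of 155, 150.2 and 150.2 in MCLI8, 67.4, 122 and 80.3 in MCLI8/SALI4, with 77.9 and 99.0 in MCLI12. Every later sample was below every MCLI8 sample, and the later groups overlapped each other. The MCLI8 mean of 152 ± 2.89 (SD, n = 3) was 1.69 times that of MCLI8/SALI4 (90.0 ± 28.7, n = 3) and 1.72 times that of MCLI12 (88.5 ± 14.9, n = 2). The highest MCLI8/SALI4 value belonged to C097, the sample with the highest sum of 8 macrophage markers (438 FPKM, against 123 to 188 in the 7 others), and whether the one bears on the other was not tested.

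Fmo2, best known as the lung form, was lower and more variable. Its FPKM was 15.8, 16.6 and 13.6 in MCLI8, 5.69, 8.74 and 13.9 in MCLI8/SALI4, with 2.78 and 8.24 in MCLI12. MCLI12 lay below MCLI8 in both samples, while C098 of MCLI8/SALI4 reached into the range of MCLI8. The MCLI8 mean was 1.62 times that of MCLI8/SALI4 and 2.78 times that of MCLI12.

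Fmo4 and Fmo5 differed little between the groups. Fmo4 had an FPKM of 21.04, 19.3 and 18.5 in MCLI8, 13.9, 17.1 and 16.4 in MCLI8/SALI4, with 12.9 and 24.0 in MCLI12. MCLI8/SALI4 lay just below MCLI8 (ratio of means 1.24), and the MCLI12 samples were the lowest and the highest of all 8. Fmo5, the form that oxidises ketones, had an FPKM of 140, 180 and 181 in MCLI8, 135, 175 and 167 in MCLI8/SALI4, with 192 and 98.4 in MCLI12. All 3 groups overlapped for Fmo5, with ratios of the MCLI8 mean of 1.05 to MCLI8/SALI4 and 1.15 to MCLI12. Fmo5 had the highest mean FPKM of the 8 genes in both later groups, where Sult2a1 had led in MCLI8.

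**Figure D1:**
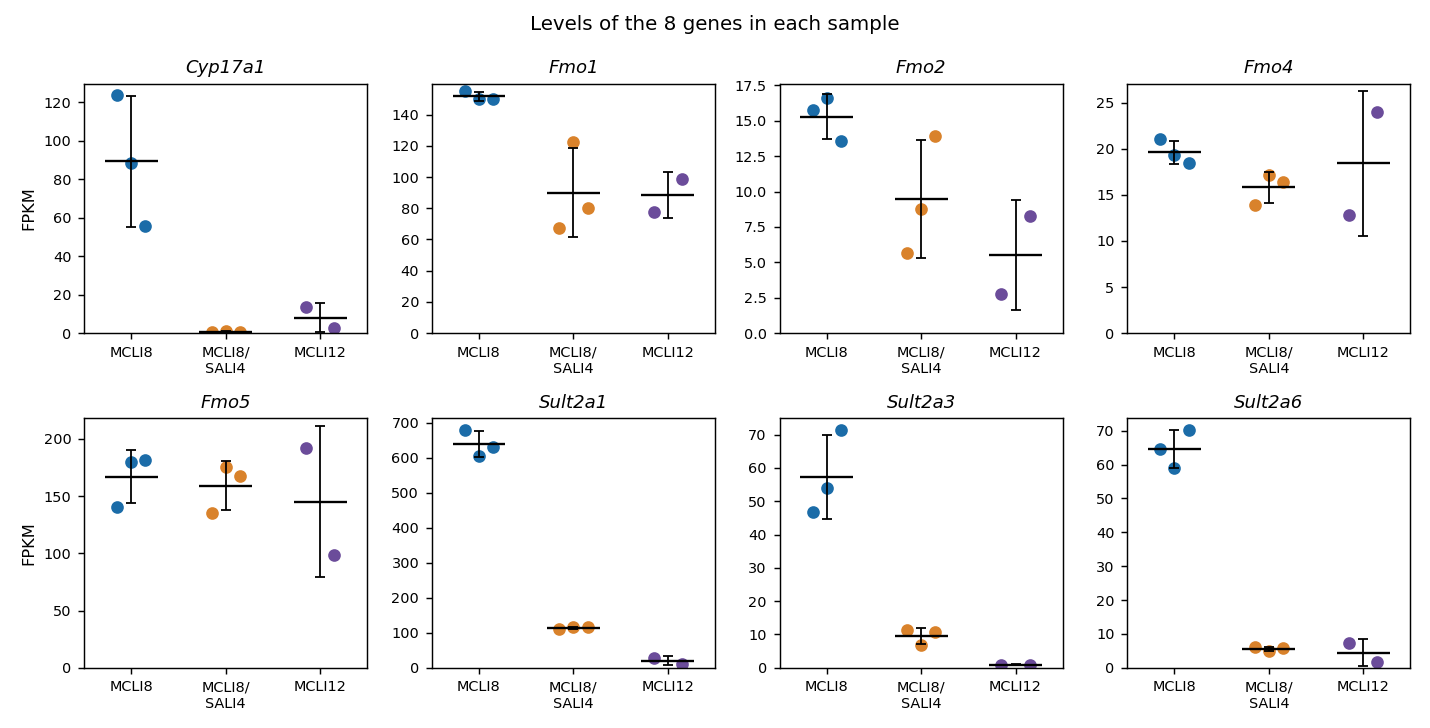
FPKM of the 8 genes (vertical axes from 0, one panel per gene) in the 3 samples of MCLI8, the 3 of MCLI8/SALI4 and the 2 of MCLI12. Points are samples, horizontal lines are group means and bars are 1 SD; Cyp17a1 and the 3 Sult2a genes lie far lower in both later groups than in MCLI8, while Fmo5 overlaps in all 3.

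In MCLI8/SALI4, 6 of the 8 genes had no sample as high as the lowest MCLI8 sample, and across all 10244 genes tested 22.3% lay below MCLI8 in this way. In MCLI12 the number was again 6 of 8, against 19.6% of all genes. The 6 differed between the comparisons by 1 gene, Fmo4 in the first and Fmo2 in the second. Since falls of this kind chose the genes, nothing is read from these counts. The median difference of the 8 genes was -1.63 in MCLI8/SALI4 and -2.52 in MCLI12 on the log2(FPKM + 1) scale, and that of all genes tested was 0.12 in both. With samples scaled by median ratios the median of all genes moved to 0.0050 and 0.0085, and each of the 8 genes remained lower than in MCLI8. Fmo4 and Fmo5 were the closest to all genes, with differences of -0.30 (SE 0.20) and -0.07 (SE 0.25) in MCLI8/SALI4 and of -0.15 (SE 0.23) and -0.27 (SE 0.28) in MCLI12. The signs of these 2 genes rested on single samples. Without 2e, which leaves 3e alone in MCLI12, the MCLI12 difference of Fmo4 was 0.28, without 3e that of Fmo5 was 0.21, and without C096 the MCLI8/SALI4 difference of Fmo5 was 0.05.

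MCLI8/SALI4 and MCLI12 were compared with each other to ask whether these genes stood at different levels. The groups also differ in tissue label (liver or tumor) and code series, and genes of the Y chromosome were highest in C097 and C098. The part of injury itself in the differences was therefore not tested. Sult2a1 and Sult2a3 were higher in MCLI8/SALI4, and Cyp17a1 was lower. The differences were 2.59 (SE 0.32) for Sult2a1 (limma, Benjamini-Hochberg adjusted p = 0.000618), 2.43 (SE 0.23) for Sult2a3 (limma, adjusted p = 0.000134) and -2.14 (SE 0.54) for Cyp17a1 (limma, adjusted p = 0.017), with no overlap of samples for any of the 3. In means of FPKM, MCLI8/SALI4 was 5.67 times MCLI12 for Sult2a1 and 10.3 times for Sult2a3, and MCLI12 was 12.2 times MCLI8/SALI4 for Cyp17a1. The samples of both groups took part in choosing the 8 genes, so these tests are not independent evidence. Called genes made up 2 of 8 higher and 1 of 8 lower, and of all genes tested 17.4% were called higher and 15.4% lower in MCLI8/SALI4.

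The other 5 genes did not pass the test between the later groups. Their differences were 0.52 (SE 0.39) for Sult2a6 (limma, adjusted p = 0.344), 0.75 (SE 0.40) for Fmo2 (limma, adjusted p = 0.188), 0.20 (SE 0.28) for Fmo5 (limma, adjusted p = 0.609), -0.15 (SE 0.23) for Fmo4 (limma, adjusted p = 0.637) and -0.01 (SE 0.24) for Fmo1 (limma, adjusted p = 0.977). With 2 samples in MCLI12 these errors leave room for sizeable differences. Single samples decided several calls. Without C098 Cyp17a1 lost its call (limma, adjusted p = 0.0555). Leaving out 2e or 3e leaves MCLI12 with 1 sample, whose spread is then taken from the other groups alone. On that assumption, without 2e its difference was -1.13 (limma, adjusted p = 0.0462) and Fmo4, Fmo5 and Sult2a6 passed too, and without 3e it was -3.15 (limma, adjusted p = 0.000793) and Fmo2 passed. Sult2a1 and Sult2a3 passed in each of these fits. The directions of the uncalled genes were not stable, and without 3e Sult2a6, Fmo1, Fmo4 and Fmo5 changed sign (-0.32, 0.16, 0.27 and -0.28).

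**Figure D2:**
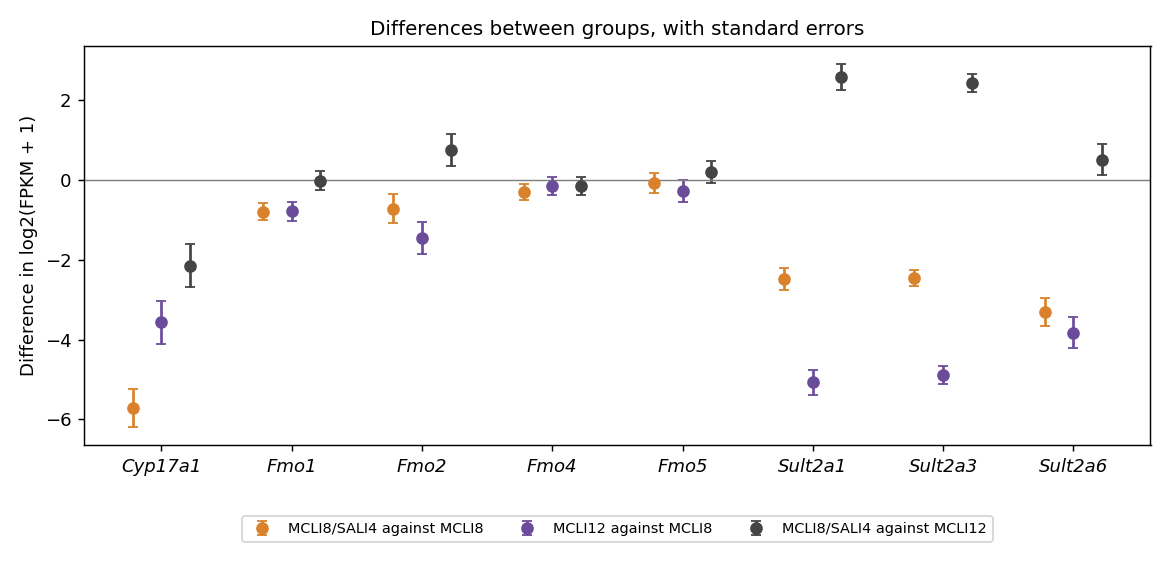
Differences between groups in log2(FPKM + 1) for the 8 genes, with limma standard errors as bars (vertical axis) and 3 comparisons per gene in separate colours. Cyp17a1 lies furthest below 0 in MCLI8/SALI4 (-5.71), Sult2a1 and Sult2a3 in MCLI12 (-5.07 and -4.89), and Fmo4 and Fmo5 lie near 0 in all 3 comparisons.

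Among the 8 genes, profiles over the samples were most alike for Fmo1 and Fmo4 and for Sult2a1 and Sult2a3. Likeness was measured as the root mean square difference of log2(FPKM + 1) values centred on each gene's mean over the 8 samples, which was 0.343 for Fmo1 and Fmo4 and 0.415 for Sult2a1 and Sult2a3. Cyp17a1 was nearest to Sult2a6, at 1.27. Among all other genes tested, the 3 nearest to Cyp17a1 were Upp2 (0.977), a uridine phosphorylase of liver, the cytochrome P450 gene Cyp3a44 (1.02) and Hamp2 (1.04), a hepcidin gene. Nearest to Sult2a1 were Sult2a2 (0.589), Rgs16 (0.845), a regulator of G-protein signalling, and Pcp4l1 (0.899). Nearest to Fmo1 were the tumor necrosis factor receptor gene Tnfrsf1b (0.0911), the adiponectin receptor gene Adipor2 (0.0963) and the lipid phosphatase gene Plpp3 (0.103), and nearest to Fmo5 were Sgpp1 (0.121), Hs3st3b1 (0.133) and Pnpla8 (0.137). These are descriptions over 8 samples in which a gene that varies little can only come near others that vary little.

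Of the genes related to these 8 by family or pathway, 34 of 56 passed the floor on low values: other Fmo and sulfotransferase genes, genes that supply PAPS and handle sulfate, and steroid enzymes with their electron donors. In MCLI8/SALI4 against MCLI8, 14 of the 34 were called lower and 3 higher at an adjusted p under 0.05 (limma), and of all genes tested 14.1% were called lower and 25.3% higher. In MCLI12 against MCLI8, 10 were called lower and 1 higher, against 6.98% and 12.2% of all genes. In MCLI8/SALI4 against MCLI12, 10 were called lower and 7 higher, against 15.4% and 17.4% of all genes. The median difference of the 34 was -0.46, -0.38 and -0.12 in these comparisons. Single samples moved these counts. For MCLI12 against MCLI8, 5 genes were called without 3a, 6 without 1a or 2a and 20 without 2e, against 11 in all, and the count of 20 rests on 3e as the single MCLI12 sample, assumed to vary like the other groups. For MCLI8/SALI4, 11 genes were called without 1a against MCLI8, and 10 without 3e, 9 without C098 and 11 without C096, 1a, 2a or 3a against MCLI12, where 17 were called with all samples kept.

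Of 17 other sulfotransferase genes, 7 passed the floor, and 4 of the 7 were called lower in MCLI8/SALI4 against MCLI8 and 0 higher (limma, 0 higher also at an unadjusted p under 0.05). Sult2a8, which belongs to the same cluster and is least like Sult2a1 in its coding sequence (69.2%), had an FPKM of 28.4, 21.1 and 22.3 in MCLI8, 1.85, 2.57 and 2.35 in MCLI8/SALI4, with 3.05 and 6.43 in MCLI12. It fell in both groups, with differences of -2.93 (SE 0.22; limma, adjusted p = 3.22e-05) and -2.17 (SE 0.25; limma, adjusted p = 0.00184). Only 1.96% of its windows occurred in another gene. Sult2a2, which shares 62.1% of its windows, had an FPKM between 283 and 332 in MCLI8, between 56.6 and 58.8 in MCLI8/SALI4, with 42.6 and 12.0 in MCLI12, and could not be separated from Sult2a1 with certainty.

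Sult2a5 did not follow the 3 members of its family in MCLI8/SALI4. Its FPKM was 13.4, 7.56 and 13.0 in MCLI8, 10.5, 8.28 and 10.3 in MCLI8/SALI4, with 2.60 and 0.187 in MCLI12. In MCLI8/SALI4 it stayed within the range of MCLI8, and both MCLI12 samples were lower (-2.54, SE 0.42; limma, adjusted p = 0.0072), also against MCLI8/SALI4 (limma, adjusted p = 0.00379). Whether the Sult2a genes differ from each other in their change was not tested. Sult2a5 shares 34.5% of its windows with other genes. The 8 Sult2a genes summed to 1164, 1030.2 and 1125 FPKM in MCLI8, 198, 196 and 201 in MCLI8/SALI4, with 85.6 and 32.2 in MCLI12. In MCLI8 most of this sum came from Sult2a1 and Sult2a2, with means of 638 and 310 of 1106 FPKM. Its order of groups therefore largely repeats theirs and is not read as that of the family. Sult2a8 was lower in MCLI8/SALI4 than in MCLI12 (-0.76, SE 0.25; limma, adjusted p = 0.047).

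**Figure D3:**
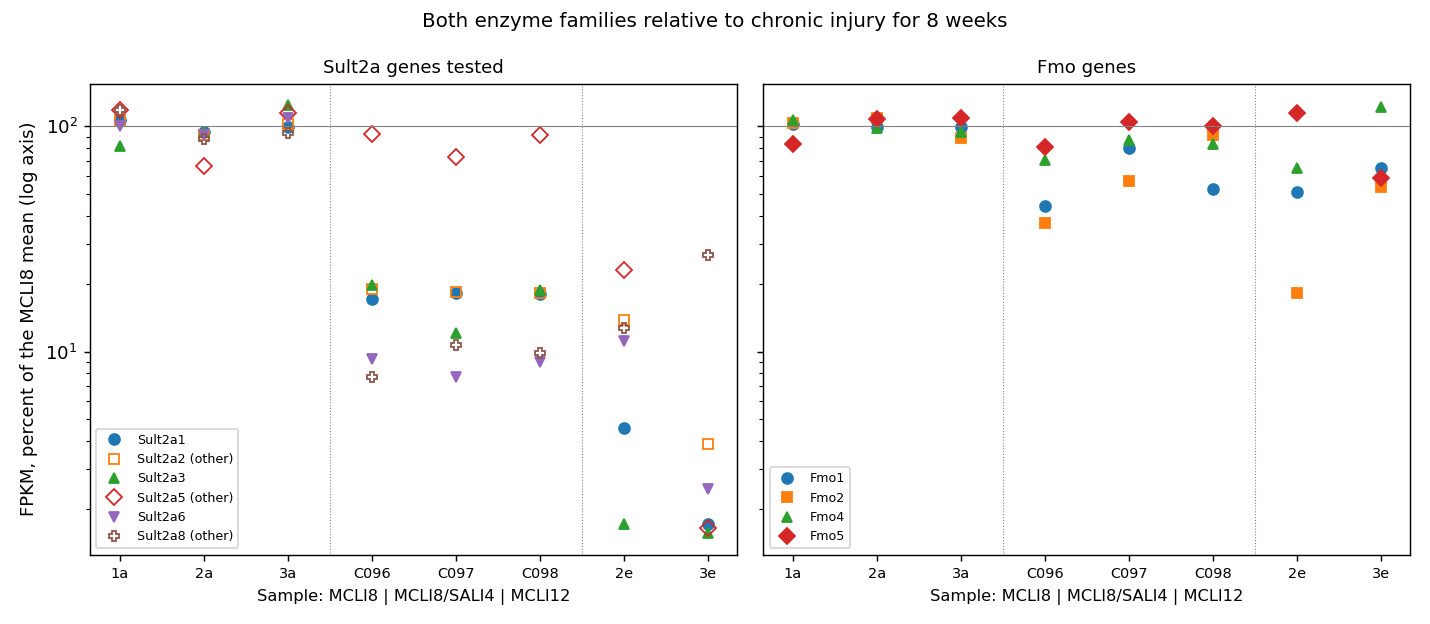
FPKM of the Sult2a genes that passed the floor (left) and of the 4 Fmo genes described here (right), as a percentage of each gene's mean in MCLI8 (log axis), in every sample. Filled symbols are genes of the 8 and open symbols other genes of the family; Sult2a5 stays near 100% in MCLI8/SALI4 and drops in MCLI12, and Fmo4 and Fmo5 stay nearer to 100% than the Sult2a genes of the 8 in both later groups.

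Outside the Sult2a cluster, 3 sulfotransferases were each called lower in 1 of the later groups. Sult1c2 and Sult1b1 were lower in MCLI8/SALI4 than in MCLI8 (-1.87 and -0.77; limma, adjusted p = 0.00501 and 0.0382), and Sult1d1, which acts on catecholamines, was lower in MCLI12 (-1.16, SE 0.27; limma, adjusted p = 0.0217). Between the later groups Sult1c2 and Sult1a1 were lower in MCLI8/SALI4 (-1.83 and -1.21; limma, adjusted p = 0.0105 and 0.0239) and Sult1d1 higher (1.43; limma, adjusted p = 0.00474). Sult3a1 did not pass the floor. It is named because its values stood out, with an FPKM of 56.4, 33.7 and 5.73 in MCLI8 and at most 0.165 in any later sample.

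Papss2, which makes the sulfate donor PAPS that the SULT2A enzymes need, was lower in both later groups. Its FPKM was 80.3, 81.4 and 81.7 in MCLI8, 36.5, 42.6 and 31.2 in MCLI8/SALI4, with 52.6 and 17.5 in MCLI12. No later sample reached the MCLI8 range, and the differences were -1.13 (SE 0.33; limma, adjusted p = 0.026) and -1.38 (SE 0.37; limma, adjusted p = 0.0346). Of the 7 genes of PAPS supply and sulfate handling tested, Papss2 was the one called lower in each of these comparisons. Impad1, a phosphatase that removes the spent donor in the Golgi, was called higher in MCLI8/SALI4 (0.81, SE 0.11; limma, adjusted p = 0.000916). Between the later groups the sulfate transporter gene Slc26a1 was lower in MCLI8/SALI4 (-2.21, SE 0.56; limma, adjusted p = 0.018), with FPKM of 61.9 and 13.5 in the MCLI12 samples against 3.31 to 9.27.

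Of 28 steroid enzymes and electron donors, 19 passed the floor, of which 8 were called lower and 2 higher in MCLI8/SALI4 against MCLI8, and 4 lower and 1 higher in MCLI12 against MCLI8. Por, the reductase that passes electrons to CYP17A1 and other microsomal P450 enzymes, had an FPKM of 176, 182 and 206 in MCLI8, 189, 170.4 and 170.3 in MCLI8/SALI4, with 95.8 and 49.2 in MCLI12. It was lower in MCLI12 than in MCLI8 (-1.44, SE 0.25; limma, adjusted p = 0.00833) and than in MCLI8/SALI4 (limma, adjusted p = 0.00458), where its values overlapped MCLI8. Hsd11b1, which reactivates glucocorticoids, fell in MCLI8/SALI4 from between 118 and 133 FPKM to between 31.1 and 37.0 (-1.86, SE 0.31; limma, adjusted p = 0.00224). Srd5a1, a steroid 5-alpha reductase, and Hsd3b1 were also lower in MCLI8/SALI4 (-1.30 and -1.11; limma, adjusted p = 0.012 and 0.0325). Cyp21a1, the steroid 21-hydroxylase gene, rose in MCLI8/SALI4 from between 1.15 and 1.38 FPKM to between 5.25 and 16.3 (2.24, SE 0.31; limma, adjusted p = 0.00093), and shares 23.8% of its windows, chiefly with a pseudogene. Hsd17b11 and Hsd17b10 were lower in MCLI12 than in MCLI8 (-1.44 and -0.67; limma, adjusted p = 0.0196 and 0.0214). Hsd17b6, which oxidises androgen metabolites, was higher in MCLI8/SALI4 than in MCLI12 (2.73, SE 0.70; limma, adjusted p = 0.0182), with FPKM of 132 and 15.9 in the MCLI12 samples.

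Nuclear receptors and liver transcription factors known to act on drug and steroid metabolism formed another list, of which 24 of 26 passed the floor. In MCLI8/SALI4 9 were called lower and 2 higher than in MCLI8, in MCLI12 3 lower and 1 higher, and between the later groups 4 lower and 3 higher. Of all genes tested, 14.1%, 6.98% and 15.4% were called lower and 25.3%, 12.2% and 17.4% higher in these comparisons. Nr1i3, which encodes the receptor CAR, fell in both groups. Its FPKM was 33.0, 25.1 and 27.1 in MCLI8, 10.3, 11.1 and 10.9 in MCLI8/SALI4, with 7.50 and 5.69 in MCLI12, in the same order of groups as Sult2a1 and Sult2a3. The differences from MCLI8 were -1.31 (SE 0.14; limma, adjusted p = 0.000193) and -1.95 (SE 0.15; limma, adjusted p = 0.000642), and 63.6% of the windows of Nr1i3 also occur in the overlapping gene Tomm40l. Nr1h3 and the bile acid receptor gene Nr1h4 were lower in MCLI8/SALI4 (-0.97 and -0.69; limma, adjusted p = 0.0146 and 0.0276). Cebpb was lower in MCLI12 than in either other group (-1.26 against MCLI8; limma, adjusted p = 0.0112), and Rora was higher in MCLI12 than in MCLI8 (0.79; limma, adjusted p = 0.0198).

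Of 15 liver genes known to be higher in female mice 10 passed the floor, and 6 were called lower and 0 higher than in MCLI8 both in MCLI8/SALI4 and in MCLI12 (limma, 0 higher also at an unadjusted p under 0.05), with median differences of -2.43 and -1.48. Cyp3a16 had an FPKM of 47.5, 53.3 and 32.5 in MCLI8, 2.53, 2.86 and 0.614 in MCLI8/SALI4, with 0.561 and 0.597 in MCLI12, and Cyp3a44 and the acyl-CoA thioesterase gene Acot3 fell in both groups too. Cyp3a44 changed by -3.78 and -3.56 (limma, adjusted p = 0.000363 and 0.00383), and Acot3 by -3.48 and -2.62 (limma, adjusted p = 2.51e-05 and 0.00154). Hao2 fell in MCLI8/SALI4 (-4.02, SE 0.32; limma, adjusted p = 4.2e-05) but was between 18.8 and 31.0 FPKM in MCLI12 and between 12.9 and 32.4 in MCLI8. Cyp2a4, the most abundant gene of the list, was between 2242 and 3137 FPKM in MCLI8, between 2992 and 3816 in MCLI8/SALI4 (0.40, SE 0.21; limma, adjusted p = 0.158), and at 1417 and 1306 in MCLI12, where it was called lower (-0.96; limma, adjusted p = 0.0248). Cyp3a41b also had a difference above 0 in MCLI8/SALI4 (0.81, SE 0.36; limma, adjusted p = 0.107), with FPKM of 3.57 or less in every sample. It shares 93.5% of its windows with Cyp3a41a, whose mean was 11.7 FPKM in MCLI8 and 3.92 in MCLI8/SALI4. Shared windows made up 38.8% for Cyp2a4, 26.45% for Cyp3a44, 21.25% for Acot3 and 10.7% for Cyp3a16, and 0 for Hao2. Values of genes with many shared windows are uncertain as levels of that gene alone. Between the later groups 2 genes of the list were called lower and 2 higher, and without 1a, 2 genes in all.

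Liver genes known to be higher in males did not move one way. Of 20 such genes 12 passed the floor, and 4 were called lower and 3 higher in MCLI8/SALI4 against MCLI8, 1 lower and 2 higher in MCLI12 against MCLI8 (5 in all without 2e, and 5 without 3e), and 4 lower and 4 higher between the later groups. The median differences from MCLI8 were 0.33 and 0.65. Serpina1e and Cyp4a12b rose in MCLI8/SALI4 (3.19 and 2.75; limma, adjusted p = 0.000105 and 0.000284) while Ugt2b1 and Selenbp2 fell (-3.08 and -1.22; limma, adjusted p = 0.000224 and 0.0031). In MCLI12 the urinary protein gene Mup20 and the repressor gene Bcl6 rose (3.88 and 1.44; limma, adjusted p = 0.00988 and 0.00765), with Mup20 at 13.8 and 95.2 FPKM in the 2 samples against 1.26 to 1.88 in MCLI8. Windows shared with other genes made up 50.5% for Mup20, 49.45% for Cyp4a12b, 43.9% for Selenbp2 and 34.6% for Serpina1e, so their levels are uncertain. The share was 0 for Ugt2b1 and Bcl6.

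**Figure D4:**
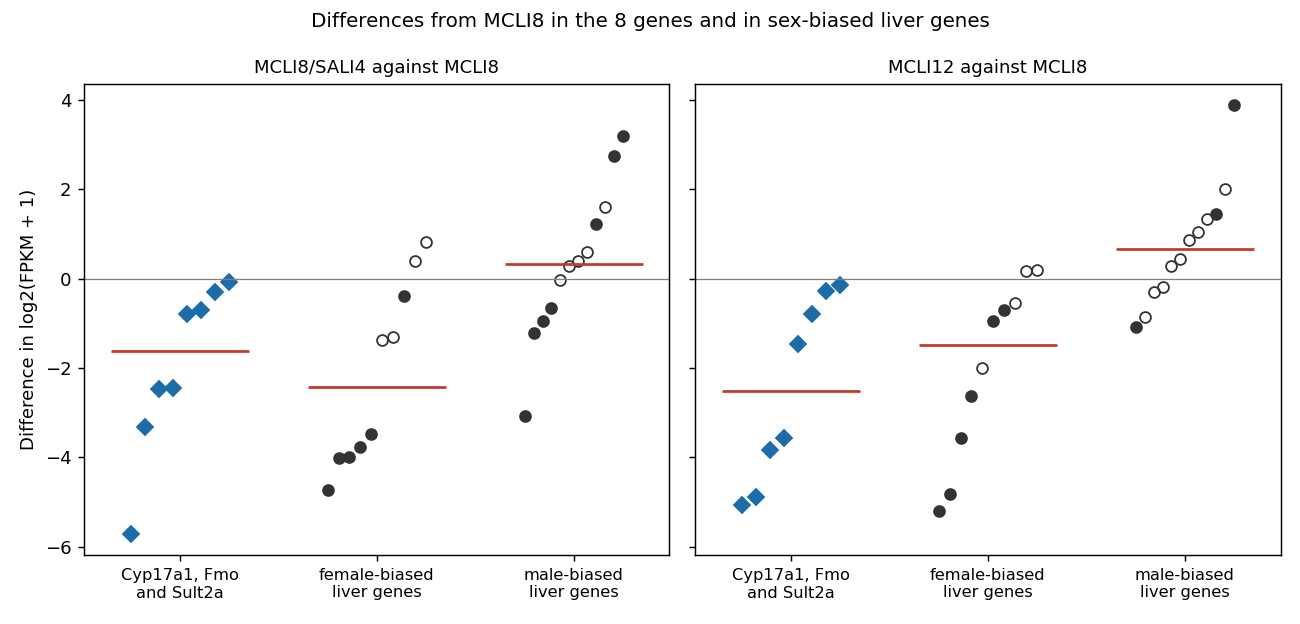
Differences from MCLI8 in log2(FPKM + 1) (vertical axis) for the 8 genes (diamonds, untested because these comparisons chose them) and for female-biased and male-biased liver genes that passed the floor (filled circles called by limma, open circles not called). Red lines are medians, at -1.63, -2.43 and 0.33 in MCLI8/SALI4 (left) and at -2.52, -1.48 and 0.65 in MCLI12 (right).

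Of 8 genes of growth hormone signalling, which sets much of the sex difference in liver, 5 were called lower and 1 higher in MCLI8/SALI4 than in MCLI8. The kinase gene Jak2 was the one called higher (0.47; limma, adjusted p = 0.0245), and Socs2 and Cish were not called. Igfals, Igf1, the receptor gene Ghr and Stat5a were the largest of these falls (-2.74, -1.81, -1.37 and -0.76; limma, adjusted p = 0.001, 0.0123, 0.00178 and 0.000643). In MCLI12 against MCLI8 only Stat5a was called lower (-0.41; limma, adjusted p = 0.0354) and 0 higher, at an unadjusted p under 0.05 also 0. In MCLI8/SALI4 against MCLI12, 4 of the 8 were called lower and 0 higher (limma, 0 higher also at an unadjusted p under 0.05).

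The labels give no sex, and the samples were unlike in genes of the Y chromosome. Ddx3y, Eif2s3y, Uty and Kdm5d were listed at 0 in MCLI8, in MCLI12 and in C096, and above 0 in C097 and C098, with Eif2s3y at 26.7 and 26.1 FPKM and Ddx3y at 13.7 and 10.2. All genes of this chromosome in the table summed to 0 in MCLI8 and MCLI12, 2.21 in C096, 44.0 in C097 and 39.2 in C098. C096, without these 4 genes, had FPKM of 0.726 for Cyp17a1, 109 for Sult2a1, 11.3 for Sult2a3 and 5.999 for Sult2a6. The part of sex in the differences was not tested. With C097 and C098 left out, which assumes that C096 varies like the other groups, the differences from MCLI8 were -5.64, -2.53, -2.23 and -3.23 for these genes. In the same fit Fmo1 and Fmo2 were lower than with all samples, at -1.16 and -1.28 against -0.79 and -0.71, and 6 female-biased genes were again called lower. The test of Cyp17a1 between the later groups was then lost (limma, adjusted p = 0.132), Sult2a1 and Sult2a3 passed (limma, adjusted p = 0.0213 and 0.00235), and 11 related genes were called against MCLI8 and 8 against MCLI12.

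In bulk liver RNA, fewer cells of a type and less RNA per cell cannot be told apart. Hepatocyte markers other than Alb summed to between 13658 and 18237 FPKM in MCLI8, between 12908 and 15267 in MCLI8/SALI4, and to 24869 and 12901 in MCLI12, and of the 10 tested 2 were called lower and 2 higher in MCLI8/SALI4 and 1 higher in MCLI12. The median difference of the 10 was -0.83 in MCLI8/SALI4, with 6 lower and 2 higher at an unadjusted p under 0.05, and 0.18 in MCLI12. Cps1 and Serpinc1 fell in MCLI8/SALI4 (-1.10 and -0.90; limma, adjusted p = 0.0221 and 0.0126), while Ass1 and the abundant Apoa1 rose (4.28 and 1.04; limma, adjusted p = 0.00038 and 0.0107). In MCLI8/SALI4 against MCLI12, 5 of the 10 hepatocyte markers were called lower and 1 higher (limma), with a median difference of -0.51. Of all genes tested, 15.4% were called lower and 17.4% higher in that comparison. The part of hepatocytes in the differences of the 8 genes was not tested. The 7 bile duct markers summed to between 13.5 and 18.7 in MCLI8 and between 44.8 and 50.5 in MCLI8/SALI4. The sum was 36.3 in 2e and 356 in 3e. Of the 6 tested, 2 and 4 were called higher in the 2 comparisons with MCLI8. In 3e, where Spp1 was at 311 FPKM, Cyp17a1, Sult2a1, Sult2a6 and Fmo5 were lower than in 2e and Fmo1, Fmo2 and Fmo4 higher. Sult2a3 was slightly lower in 3e (0.894 against 0.983 FPKM). The part of bile duct cells in these differences was not tested. Of 6 endothelial markers 3 were called lower in each of these comparisons (and 1 higher in MCLI8/SALI4), of 8 macrophage markers 0 were called (limma, at an unadjusted p under 0.05 also 0 in MCLI8/SALI4 and 1 in MCLI12), and no lymphocyte marker passed the floor. Stellate and fibroblast markers had 1 of 6 called lower in MCLI8/SALI4, and 1 lower and 1 higher in MCLI12. Their part in the results was not tested either. The extraction text in the labels names retinas, but the photoreceptor marker Sag was at 0.0997 FPKM or less in every sample. Rcvrn was listed at 0, from which no level is read. Of 8 retina markers 2 passed the floor, Gnat1 at 1.95 to 3.57 FPKM and Rom1 at 2.07 to 3.25, and neither was called in any comparison (limma, at an unadjusted p under 0.05 1 gene in MCLI8/SALI4 against MCLI8).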

How the data were processed

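The 8 samples were grouped by treatment label, 3 in MCLI8, 3 in MCLI8/SALI4 and 2 in MCLI12. Values are FPKM as deposited by the authors, in 1 table of 22504 genes with 0 columns of samples from elsewhere. The submitters' processing notes name Bowtie 0.12.2 and the build mm8, and the quantifier and annotation are not given in the sources used here. Depth is unknown, since FPKM keeps no read counts.

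The 10244 genes past the floor (an FPKM of 1 or more in 4 samples or more) were compared as log2(FPKM + 1), without further scaling, using limma 3.58.1 in R 4.3.3 (lmFit, and eBayes with a trend) in a single fit of 3 groups. P-values are two-sided, adjusted by the Benjamini-Hochberg method over these genes, with a threshold of 0.05. The fit was tested on simulated data. The study's text describes the samples as single animals, and no label gives an animal number.

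The genes and lists were chosen with earlier results of these data known. Genes named from a list are up to 4 per comparison with the largest differences among those called (where none was called, up to 2 with the highest mean), and defining markers. Sult3a1, Jak2, Akr1b7 and Cyp3a41b were singled out after their values were seen. Some genes that the naming rule picks are not reported here. Shared windows, coding identity (Biopython 1.88, Python 3.11.15) and places are from GENCODE M21 on GRCm38.p6, which may differ from the authors' annotation.

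Alternatives were a pseudocount of 0.1, a floor of 0.1 or none, median-ratio scaling, equal FPKM totals, no eBayes trend, fits of 2 groups alone, each sample left out, and the replicate number as a block. Leaving out C097 and C098, and the crossed pairing, were added after seeing the data.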

Additional observations from a re-analysis of the deposited data

How the results depend on the processing

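FPKM keeps no depth, the groups hold 2 or 3 samples, and the code series cannot be told apart from MCLI8/SALI4. Over 400 values of the 8 genes under alternatives, 371 stayed on their side of the threshold or within the spread between samples, 16 moved beyond it, and 2 lost and 4 gained their call. Signs changed in 10, of genes that were not called or not tested: 3 against MCLI8 and 7 between the later groups. The latter came with samples left out in turn (Fmo1 -0.252 to 0.172, Fmo4 -0.578 to 0.272, Fmo5 -0.278 to 0.679, Sult2a6 -0.318 to 1.35) and without C097 and C098 (Fmo5 -0.028). A group left with 1 sample was assumed to vary like the others. The cause of the changes below was not tested.

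With a pseudocount of 0.1 the median difference of the 8 genes in MCLI12 against MCLI8 was -2.728. Without a floor, 1 female-biased gene was called between the later groups. In fits of only the 2 groups compared, 6 related genes were called between the later groups. Samples left out in turn gave 2 to 6 of the 8 genes called between the later groups, and median differences from MCLI8 of -1.749 to -1.531 in MCLI8/SALI4 and -2.696 to -2.334 in MCLI12. They gave 11 to 22 related genes called in MCLI8/SALI4 against MCLI8, 5 to 20 in MCLI12 against MCLI8 and 9 to 17 between the later groups. For female-biased genes the ranges were 5 to 8, 4 to 8 and 2 to 5, and for male-biased genes 5 to 9, 2 to 5 and 7 to 11. Without C097 and C098, 11 related genes were called in MCLI8/SALI4 against MCLI8 and 8 between the later groups.

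MCLI8 and MCLI12 share the replicate numbers 2 and 3, which the labels do not tie to an animal or batch, and the deviations of samples with the same number had a correlation of -0.189 across genes. With the number as a replicate block over these 4 samples, 4 related genes were called and 252 of all genes. With the crossed pairing 1 related, 2 female-biased and 0 male-biased genes (limma) were called, and 16 of all genes. All samples without a block gave 1962 of all genes.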
